A study of Homo sapiens with 6 samples.

Results

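Messenger RNA of 10 genes for secreted chemokines and cytokines was followed in cells in which the translation factor EIF4G2 had been silenced. They are the chemokines CCL5, CCL2, CXCL10, CXCL8 and CXCL1, the interleukins IL32, IL18 and IL6, the gp130 cytokine LIF and the growth factor CSF1. They were picked by symbol from a table of 60612 gene rows, with the values of the same silencing comparison known, so their own values are a description and carry no test. The groups were 3 libraries of cells labelled Hep3B, a line derived from human hepatocellular carcinoma, in which small interfering RNA at 50 nM was directed at EIF4G2 (siEIF4G2), and 3 libraries of the same line that received a control small interfering RNA at 50 nM (siNC). All 6 libraries were made from poly(A) RNA and read as paired ends. The labels name no separate cultures, so the spread between libraries of a group may be technical.

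Chemokines are small secreted proteins that guide the movement of leukocytes and are named by the spacing of their first pair of cysteines, adjacent in CC chemokines and separated by another residue in CXC chemokines. Most of the 10 genes are induced in epithelial and other non-immune cells by NF-kB, and CXCL10 and CCL5 also by interferons. Many of their messenger RNAs are short-lived because AU-rich elements in the 3′ untranslated region are bound by decay factors. IL6 and LIF signal through the shared receptor subunit gp130, and IL18 is made as a precursor that caspase-1 cleaves.

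The promoter windows of RefSeq (GRCh38.p14, 250 bases before to 50 after a start site) held entries for 5 of the 10 genes. CCL5, CCL2, CSF1, IL18 and LIF had none. The windows of IL32, IL6 and CXCL10 are shown because these genes were detected and were lower in siEIF4G2, and capitals mark the motif matches. They lie at chr16:3065153-3065452 (plus strand, the first of 2 entries for IL32), chr7:22726950-22727249 (plus strand) and chr4:76023448-76023747 (minus strand).
IL32: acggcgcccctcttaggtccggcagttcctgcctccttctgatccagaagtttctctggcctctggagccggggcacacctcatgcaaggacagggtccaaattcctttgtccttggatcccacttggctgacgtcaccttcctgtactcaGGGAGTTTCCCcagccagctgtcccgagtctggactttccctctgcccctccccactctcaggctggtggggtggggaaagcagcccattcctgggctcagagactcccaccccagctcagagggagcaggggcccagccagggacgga
IL6: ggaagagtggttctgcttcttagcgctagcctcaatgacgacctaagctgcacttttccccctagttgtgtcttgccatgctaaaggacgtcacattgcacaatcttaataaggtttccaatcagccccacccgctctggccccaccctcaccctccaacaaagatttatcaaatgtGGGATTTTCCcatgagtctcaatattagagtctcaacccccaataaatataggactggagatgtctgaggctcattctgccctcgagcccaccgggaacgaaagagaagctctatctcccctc
CXCL10: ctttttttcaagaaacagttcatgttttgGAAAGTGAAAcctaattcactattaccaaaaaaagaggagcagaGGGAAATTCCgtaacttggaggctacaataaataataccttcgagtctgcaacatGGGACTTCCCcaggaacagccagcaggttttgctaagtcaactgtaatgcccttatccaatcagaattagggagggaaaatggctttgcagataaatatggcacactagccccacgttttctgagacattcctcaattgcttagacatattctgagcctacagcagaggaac
All 3 windows hold the NF-kB consensus of 10 letters, which 11.3% of all 35116 promoter windows hold on either strand. Its match begins 99 bases before the start site in IL32, where a second match on the other strand overlaps it, and 73 bases before in IL6. In CXCL10 the consensus matches at 177 and at 122 bases before the start site. The interferon-stimulated response element of 10 letters matches 221 bases before the CXCL10 start site, and 3.57% of all windows hold it on either strand. The second IL32 window held none of the motifs searched, which were these 2, AP-1 (TGANTCA, in 7.71% of all windows), the interferon-gamma activated sequence (TTCNNNGAA, in 7.66%) and a kB variant of 9 letters.

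CXCL8 and CXCL1, which were hardly detected, carry kB sequences too, shown here with their flanks from chr4:73740458-73740506 and chr4:73869294-73869343, both on the plus strand.
CXCL8: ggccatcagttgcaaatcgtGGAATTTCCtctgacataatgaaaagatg
CXCL1: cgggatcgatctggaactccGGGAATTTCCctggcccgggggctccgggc
The kB variant GGAATTTCC, added to the search after the sequences had been read, is in 0.461% of all windows. It matches in CXCL8, inside the consensus match of CXCL1 and, on the other strand, inside the first consensus match of CXCL10. In CXCL8 an AP-1 match lies 137 bases before the start site. A match is a run of letters and not a measured binding site.

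**Figure D1:**
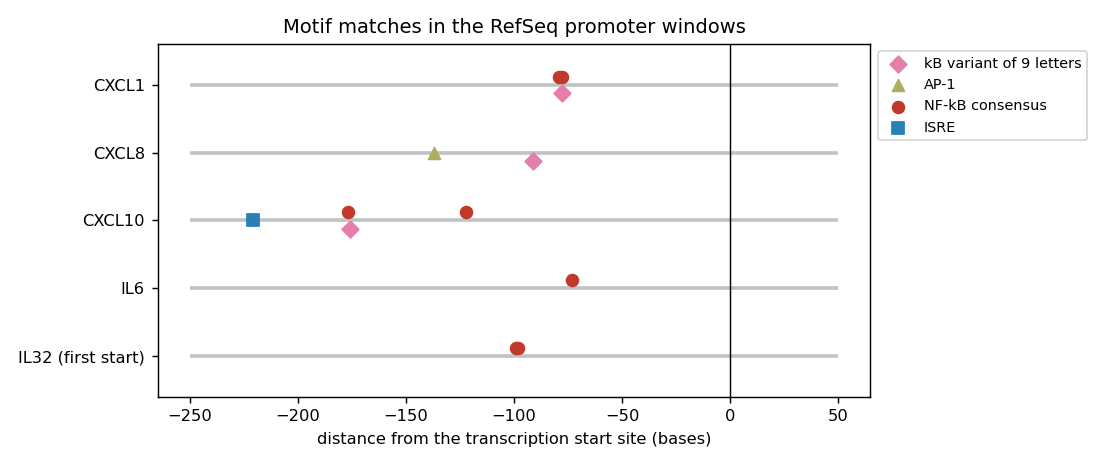
Positions of motif matches, in bases from the transcription start site, in the RefSeq promoter windows of CXCL1, CXCL8, CXCL10, IL6 and IL32 (first start). Each grey line is a window from 250 bases before to 50 after the start, and all marked matches lie before the start, between 221 and 73 bases.

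The 3′ untranslated regions, taken from GENCODE release 29, differed between the genes in their number of AU-rich pentamers. The pentamer ATTTA occurred 9 times in CXCL8, 7 times in LIF, 6 times in IL6, 5 times in CXCL1 and 4 times in CSF1. It occurred once each in CCL2 and CXCL10 and not at all in CCL5, IL32 and IL18. Of 18505 protein-coding genes 36.3% had at least 3 pentamers and 24.4% at least 5, with a median 3′ untranslated region of 828 bases. Per length the pentamer was densest in IL6, at 14.0 per kilobase, against 2.19 per kilobase in LIF, whose region of 3204 bases is the longest of the 10. The order by number was not the order per length, since CCL2 had 2.66 per kilobase and CSF1 had 1.86. The longer element TTATTTATT, present in 7.30% of genes, was found in CXCL1, LIF and CXCL8. The 30 bases richest in pentamers, in capitals, are shown for the 3 genes with the most of them, at chr4:73743108-73743137 (plus strand), chr22:30240522-30240551 (minus strand) and chr7:22731697-22731726 (plus strand).
CXCL8: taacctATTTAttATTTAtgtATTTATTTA
LIF: ATTTAttcaatgtcatATTTAaaatATTTA
IL6: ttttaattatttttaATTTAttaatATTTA
No relation between pentamers and the fold changes was tested.

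Deposited counts summed to between 63351653 and 72863628 per library. EIF4G2 itself read, for replicates 1 to 3, 178, 180 and 199.8 CPM with siEIF4G2, against 1103, 913 and 998 CPM with siNC, where CPM is the count per 1000000 of the library total scaled by TMM factors. This is a 5.41-fold lower level (log2 fold change -2.44, SE 0.09, edgeR adjusted p = 0.000207). CTR9, on the other strand, shares part of the EIF4G2 interval. For replicates 1 to 3 it held 6098, 5420 and 5706 counts in siEIF4G2, and 5661, 5144 and 5888 counts in siNC. EIF4G2 held 13241, 11823 and 12854 counts in siEIF4G2. The strand setting is not given, so reads in the shared part cannot be told apart. The labelled cell type was not borne out by its markers, since 9 of 14 hepatocyte and hepatocellular carcinoma markers, ALB, AFP and GPC3 among them, had 0 counts in all 6 libraries and the 14 together summed to 0.124 to 0.416 CPM in siEIF4G2 and 0.060 to 0.248 CPM in siNC. Of 20 leukocyte markers 12 had 0 counts in all libraries, among them PTPRC, CD3E and TYROBP, and only CD68 and CSF1R exceeded 1 CPM. The leukocyte list summed to 23.7 to 30.2 CPM in siEIF4G2 and 39.3 to 46.1 CPM in siNC, nearly all from these 2 genes. Of 13 endothelial, fibroblast and pericyte markers 8 exceeded 1 CPM and none was at 0 in every library, with sums of 630 to 666 CPM in siEIF4G2 and 547 to 575 CPM in siNC, led by COL3A1 and LUM. The 8 did not share a direction, since COL3A1, LUM, DCN and RGS5 had higher means in siEIF4G2, while CDH5 (3.12 CPM in siEIF4G2, 9.41 CPM in siNC), PDGFRB (10.7 CPM in siEIF4G2, 24.5 CPM in siNC), COL1A1 (73.4 CPM in siEIF4G2, 99.0 CPM in siNC) and COL1A2 (0.575 CPM in siEIF4G2, 1.11 CPM in siNC) had lower means. Of 7 adipocyte markers ADIPOQ, LEP and CIDEC were at 0, and only LPL and PPARG exceeded 1 CPM. The adipocyte list summed to 39.1 to 43.8 CPM in siEIF4G2 and 34.2 to 36.5 CPM in siNC, nearly all from these 2 genes. The part of these sums in the results below was not tested.

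CCL5, which attracts T cells, monocytes and eosinophils through receptors that include CCR1 and CCR3, had the largest log2 fold change of the 8 tested genes, except without siEIF4G2 replicate 2, where CXCL10 passed it (-1.74 for CXCL10 and -1.67 for CCL5). The gene (ENSG00000271503) lies at chr17:35871491-35880793 on the minus strand in GRCh38. For replicates 1 to 3 it read 35.7, 22.0 and 23.3 CPM with siEIF4G2, against 91.5, 96.5 and 94.5 CPM with siNC. All 3 siEIF4G2 libraries lay below all 3 siNC libraries, with siEIF4G2 replicate 1 above the other two. The means were 27.0 ± 7.55 CPM in siEIF4G2 and 94.2 ± 2.56 CPM in siNC (SD, n = 3 each), a log2 fold change of -1.80 (SE 0.19) or a 3.49-fold lower level. In RNA from a whole culture, fewer cells that make a transcript and less of it per cell cannot be told apart. The antisense gene AC015849, whose interval covers CCL5, held 4, 8 and 0 counts in siEIF4G2 and 0 in each siNC library.

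CCL2, the monocyte attractant that acts through CCR2, differed least among the detected genes. The gene (ENSG00000108691, chr17:34255218-34257203, plus strand) read, for replicates 1 to 3, 5.01, 3.18 and 5.60 CPM with siEIF4G2, against 6.11, 4.72 and 6.39 CPM with siNC. The groups overlapped, since siNC replicate 2 lay below siEIF4G2 replicates 1 and 3. The log2 fold change was -0.32 (SE 0.24), smaller than 2 standard errors.

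CXCL10, an interferon-induced chemokine that attracts activated T cells through CXCR3, was lower in siEIF4G2 at low levels. The gene (ENSG00000169245, chr4:76021118-76023497, minus strand) read, for replicates 1 to 3, 1.21, 1.86 and 0.917 CPM with siEIF4G2, against 2.96, 4.97 and 2.74 CPM with siNC. The groups did not overlap, and siNC replicate 2 stood well above the other two siNC libraries. The log2 fold change was -1.42 (SE 0.35), or 2.68-fold lower, and its SE was the largest of the 8 tested genes. ART3, whose interval covers CXCL10, had 0 counts in every library.

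CXCL8 and CXCL1, the neutrophil attractants of the CXCR1 and CXCR2 receptors, were below the level needed for a comparison. CXCL8 (ENSG00000169429, chr4:73740541-73743716, plus strand) had 0, 13 and 16 counts in siEIF4G2 replicates 1, 2 and 3, against 5, 12 and 35 counts in siNC replicates 1, 2 and 3. Those counts come to at most 0.249 CPM in siEIF4G2 and 0.497 CPM in siNC, and the groups overlapped. CXCL1 (ENSG00000163739, chr4:73869393-73871308, plus strand) had 9 counts in siEIF4G2 replicate 1 and 0 in the other 5 libraries. Counting error alone lets a count of 0 stand for up to 3 counts, which is 0.0412 to 0.0474 CPM per library. Reads of CXCL1 may be shared with its close paralogs CXCL2 and CXCL3.

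IL32, a proinflammatory cytokine first described in activated lymphocytes, was lower in siEIF4G2 at a level of a few CPM. The gene (ENSG00000008517, chr16:3065297-3069819, plus strand) read, for replicates 1 to 3, 2.83, 3.51 and 3.02 CPM with siEIF4G2, against 9.98, 7.93 and 9.42 CPM with siNC. The highest siEIF4G2 library was under the lowest siNC library, and the spread relative to the mean was similar, 11.2% in siEIF4G2 and 11.6% in siNC. The log2 fold change was -1.55 (SE 0.14), or 2.92-fold lower.

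IL18, which stimulates interferon-gamma production by T and natural killer cells once its precursor is cleaved, varied most among the abundant genes. The gene (ENSG00000150782, chr11:112143253-112164093, minus strand) read, for replicates 1 to 3, 63.0, 32.7 and 40.6 CPM with siEIF4G2, against 68.1, 103.6 and 69.7 CPM with siNC. The groups did not overlap, but siEIF4G2 replicate 1 came close to the lower siNC libraries. The log2 fold change was -0.82 (SE 0.28), and leaving out 1 library gave values between -1.13, without siEIF4G2 replicate 1, and -0.60, without siNC replicate 2.

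IL6 and LIF, which both act through gp130, were lower with little spread. IL6 (ENSG00000136244, chr7:22725884-22732002, plus strand) read, for replicates 1 to 3, 3.26, 3.30 and 3.03 CPM with siEIF4G2, against 4.96, 5.56 and 5.52 CPM with siNC. LIF (ENSG00000128342, chr22:30240453-30246759, minus strand) read, for replicates 1 to 3, 14.3, 13.0 and 12.6 CPM with siEIF4G2, against 24.8, 26.3 and 29.1 CPM with siNC. Neither gene had overlapping groups. The log2 fold change was -0.74 (SE 0.11) for IL6 and -1.01 (SE 0.09) for LIF, or 1.67-fold and 2.01-fold lower. IL6 shares its interval with the antisense gene IL6-AS1, which held 28, 19 and 30 counts in siEIF4G2 and 57, 57 and 64 counts in siNC. No source used here says that counting was by strand, so reads of IL6 and IL6-AS1 cannot be told apart.

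CSF1, the growth factor of macrophages and other cells that carry CSF1R, had the smallest standard error of the 8 tested genes. The gene (ENSG00000184371, chr1:109910242-109930992, plus strand) read, for replicates 1 to 3, 23.6, 25.4 and 23.1 CPM with siEIF4G2, against 41.0, 39.9 and 39.2 CPM with siNC. The groups lay well apart, with a log2 fold change of -0.74 (SE 0.06), or 1.67-fold lower.

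**Figure D2:**
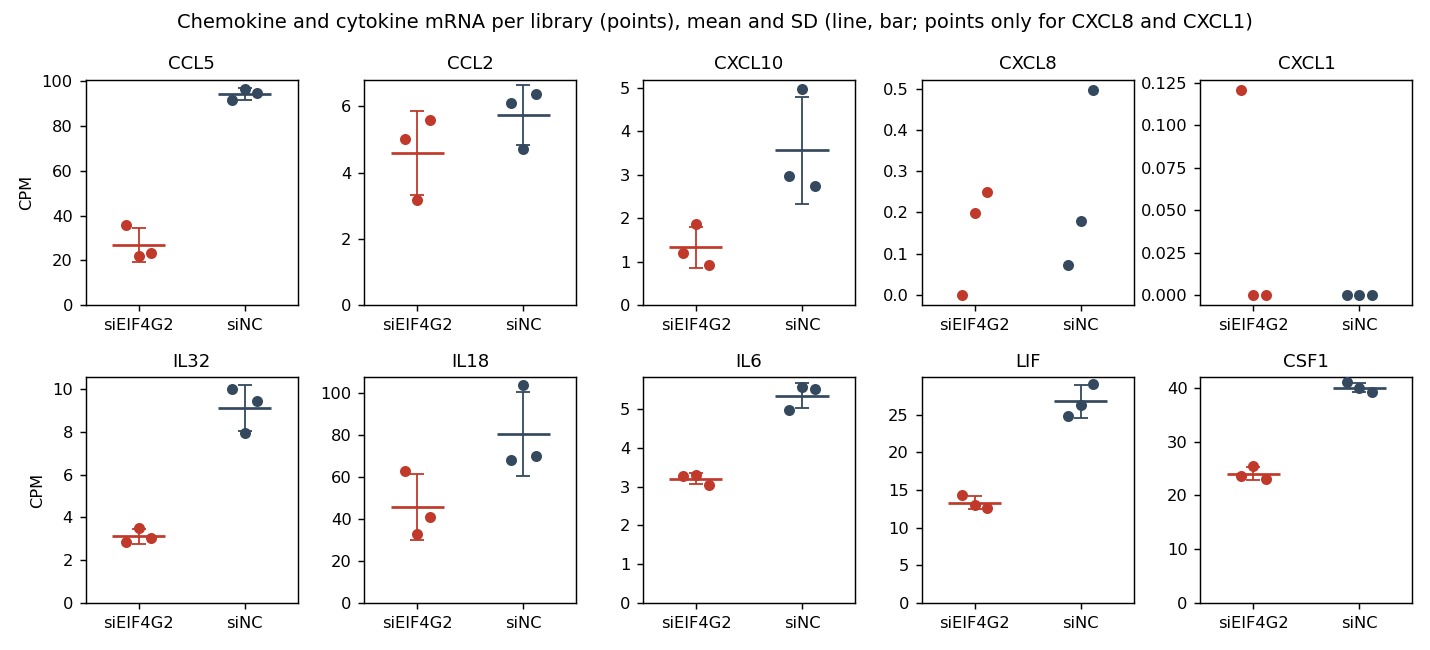
Level in CPM (vertical axis, linear, scaled per panel) of each of the 10 genes in the 3 siEIF4G2 libraries (red) and the 3 siNC libraries (blue), with the mean and SD as a line and bar for the 8 tested genes. The groups overlap in CCL2, CXCL8 and CXCL1 and lie apart in the other 7 panels.

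Of the 10 genes 8 passed the filter of at least 0.5 FPKM in at least 3 libraries, and each of the 8 was above 0.5 FPKM in all 6 libraries. FPKM is fragments per kilobase of transcript and 1000000 fragments. By edgeR's quasi-likelihood test with Benjamini-Hochberg adjustment over all 13748 tested genes, 6 of the 8 lay past an adjusted p of 0.05 downward and 0 upward, where 33.4% of all tested genes were called, 17.6% lower and 15.9% higher. CCL2 and IL18 did not pass. The 3 siEIF4G2 values lay wholly below the 3 siNC values for 7 of the 8, and for 25.6% of all tested genes (50.6% when either direction counts). The median log2 fold change was -0.92 over the 8 and 0.0075 over all tested genes. The genes were picked with these values known. Nothing is therefore read from the counts, the median or which genes pass, here or in any other setting. CXCL10 was no longer past the threshold without siEIF4G2 replicate 1 (log2 fold change -1.35), siEIF4G2 replicate 3 (-1.22) or siNC replicate 2 (-1.10), and IL18 was past it without siEIF4G2 replicate 1.

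**Figure D3:**
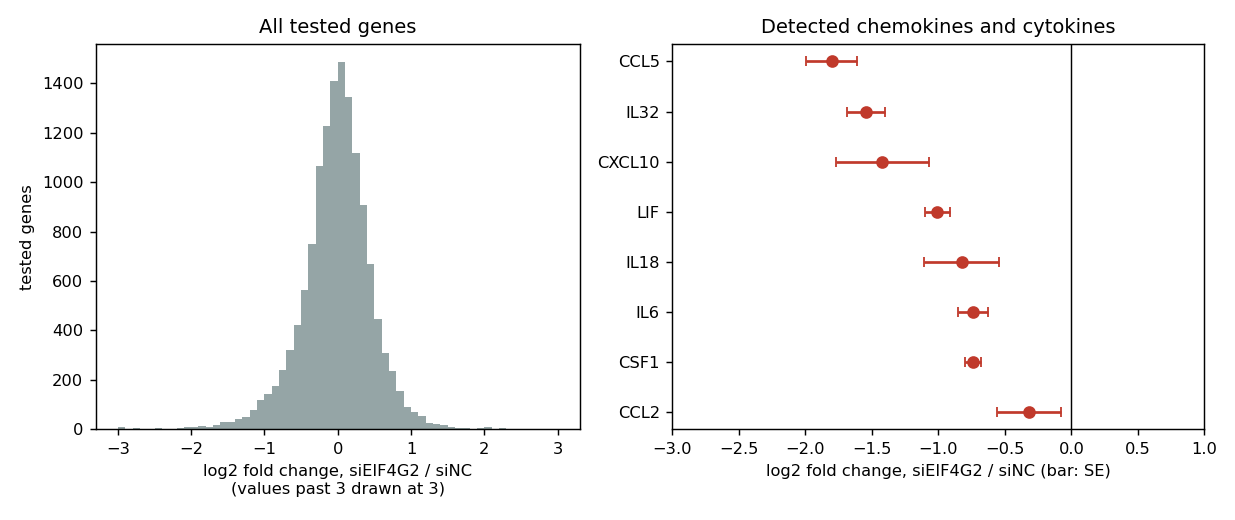
Left, number of tested genes (vertical axis) by log2 fold change of siEIF4G2 over siNC, for all 13748 tested genes. Right, log2 fold change with its SE as a bar for the 8 detected chemokines and cytokines, which runs between -1.80 for CCL5 and -0.32 for CCL2, while the median of all tested genes is 0.0075.

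The libraries did not deviate together across the genes. Within siEIF4G2, replicate 1 was highest for CCL5, IL18 and LIF but lowest for IL32. Within siNC, replicate 2 was highest for CCL5, IL18, IL6 and CXCL10 but lowest for IL32 and CCL2.

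Per transcript length, CCL5 and IL18 stood above the rest in both groups. In siEIF4G2 the mean levels were 15.2 FPKM for CCL5 and 14.7 FPKM for IL18, whose ranges overlapped, and in siNC they were 52.1 FPKM and 25.6 FPKM, whose ranges did not. CSF1 and LIF followed, at 3.86 and 2.90 FPKM in siEIF4G2 and 6.33 and 5.73 FPKM in siNC. In siEIF4G2 these 2 were apart from each other, and in siNC their ranges overlapped. CCL2, IL6, CXCL10 and IL32 came next, between 0.798 and 1.95 FPKM in siEIF4G2 and between 2.12 and 2.51 FPKM in siNC. Neighbours among these 4 overlapped in both groups, although their order differed between the groups. CXCL8 averaged 0.0528 FPKM in siEIF4G2 and 0.0876 FPKM in siNC.

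CCL5 and CCL2 were the only genes of their chromosomal cluster with any counts. Of 15 CC chemokine genes between positions 34255218 and 36212878 of chromosome 17, the other 13, such as CCL3, CCL4 and CCL7, had 0 counts in all 6 libraries. Of 13 CXC chemokine genes between positions 73740541 and 77611834 of chromosome 4, CXCL10 and its neighbour CXCL11 were tested, 5 had 0 counts throughout and the other 6 stayed below the filter. CXCL11, which like CXCL10 is induced by interferons and binds CXCR3, fell to 1.65 ± 0.0822 CPM in siEIF4G2, against 4.20 ± 0.699 CPM in siNC (log2 fold change -1.35, SE 0.17; edgeR adjusted p = 0.00237).

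A list of 41 further chemokines had 40 in the table, of which 26 had 0 counts in every library and 2 were tested. The list and those that follow were drawn up with earlier results of these data known, and are set against the 17.6% of genes called lower and 15.9% called higher. CXCL11 fell. CXCL16, a membrane-anchored chemokine, stood at 31.4 ± 2.30 CPM in siEIF4G2 and 40.8 ± 6.96 CPM in siNC (by edgeR, adjusted p = 0.0762), and its interval overlaps MED11, which had 29.4 CPM in siEIF4G2 and 17.9 CPM in siNC. Without siNC replicate 1 CXCL16 passed downward (log2 fold change -0.50, edgeR adjusted p = 0.0282). Among those below the filter, CXCL2 had 60, 56 and 29 counts in siEIF4G2 and 39, 41 and 51 counts in siNC.

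Of 77 other interleukins, TNF family ligands and related cytokines, 14 were tested, 4 fell, 0 rose and 10 did not pass, with a median log2 fold change of -0.13. CD70, a ligand of the lymphocyte receptor CD27, fell to 135 ± 5.40 CPM in siEIF4G2, against 276 ± 8.36 CPM in siNC (log2 fold change -1.03, SE 0.05; edgeR adjusted p = 0.000219). TNFSF9, the ligand of 4-1BB, fell to 77.2 ± 6.62 CPM in siEIF4G2, against 134.9 ± 6.27 CPM in siNC (by edgeR, adjusted p = 0.000950). TNFSF10, the death ligand TRAIL, fell to 6.09 ± 0.364 CPM in siEIF4G2, against 9.92 ± 0.854 CPM in siNC (by edgeR, adjusted p = 0.00479). CNTF, a gp130 cytokine, stood at 2.16 ± 0.280 CPM in siEIF4G2 and 1.53 ± 0.0973 CPM in siNC (by edgeR, adjusted p = 0.0593), and passed upward without siEIF4G2 replicate 2 (log2 fold change 0.59, edgeR adjusted p = 0.0472). MIF, the most abundant cytokine transcript of the list by CPM, stood at 383 ± 16.4 CPM in siEIF4G2 and 377 ± 2.87 CPM in siNC (by edgeR, adjusted p = 0.740), and was looked up after the values were seen.

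Signalling receptors above the filter included those of CSF1, IL6 and LIF. Of 18 listed receptors and binding proteins 7 were tested, 4 fell, 0 rose and 3 did not pass, with a median log2 fold change of -0.52. Over all tested genes 17.6% fell and 15.9% rose. CSF1R, the receptor of CSF1, fell to 4.36 ± 0.570 CPM in siEIF4G2, against 8.99 ± 1.55 CPM in siNC (log2 fold change -1.04, SE 0.17; edgeR adjusted p = 0.00595). Its interval contains RPL7P1, a ribosomal protein pseudogene with 153 CPM in siEIF4G2 and 147 CPM in siNC. IL6ST, which encodes gp130, fell to 103 ± 9.86 CPM in siEIF4G2, against 139 ± 5.98 CPM in siNC (by edgeR, adjusted p = 0.00853). The IL6ST interval overlaps AC016596, on the other strand, which had 26.9 CPM in siEIF4G2 and 16.5 CPM in siNC. IL6R, the IL6-binding chain, stood at 11.1 ± 1.79 CPM in siEIF4G2 and 15.9 ± 0.621 CPM in siNC (by edgeR, adjusted p = 0.0297). ACKR3, a scavenging receptor of CXCL11 and CXCL12, fell to 27.2 ± 0.789 CPM in siEIF4G2, against 42.9 ± 1.95 CPM in siNC (by edgeR, adjusted p = 0.000912). LIFR, the LIF-binding chain, stood at 62.9 ± 32.3 CPM in siEIF4G2 and 127 ± 4.58 CPM in siNC (by edgeR, adjusted p = 0.0694).

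Some of these calls depended on single libraries. IL6R missed the threshold without siEIF4G2 replicate 3 (by edgeR, adjusted p = 0.0557) and without siNC replicate 1, 2 or 3 (0.0866, 0.0730 and 0.0666), as well as with the replicate number as a block (0.0677). LIFR passed downward without siEIF4G2 replicate 2, where the adjusted p by edgeR was 0.00640. With all 6 libraries LIFR passed downward by the DESeq2 Wald test (adjusted p = 0.00524). The chemokine receptors CCR1 and CCR3 had at most 41 counts in any library and stayed below the filter, and CCR2, CXCR1, CXCR2, CXCR3, ACKR1 and IL18RAP had 0 counts in all libraries.

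**Figure D4:**
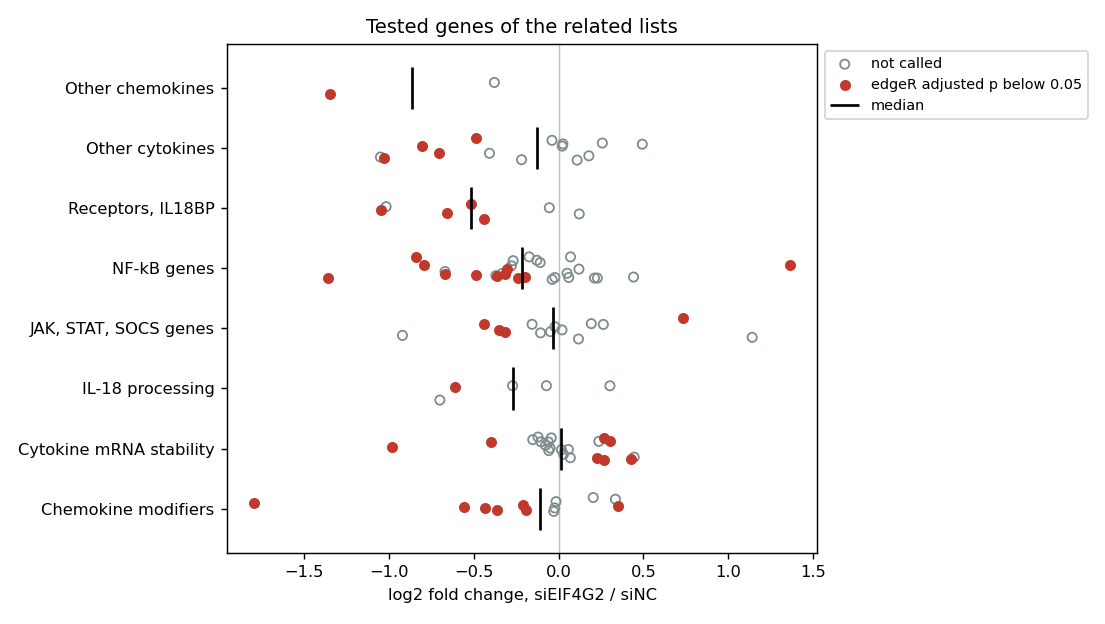
Log2 fold change of siEIF4G2 over siNC (horizontal axis) for every tested gene of 8 related lists, one row per list, with genes called by edgeR filled and medians as vertical lines. The median is -0.52 for receptors, -0.22 for NF-kB genes and 0.02 for regulators of messenger RNA stability.

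NF-kB subunits and regulators were mostly detected, and more of them fell than rose. Of 29 listed genes 28 were tested, 10 fell, 1 rose and 17 did not pass, with a median log2 fold change of -0.22. Among all tested genes 17.6% fell and 15.9% rose. RELB and NFKB2, the subunits of the noncanonical dimer, fell. RELB stood at 3.16 ± 0.113 CPM in siEIF4G2, against 8.09 ± 0.992 CPM in siNC (log2 fold change -1.36, SE 0.12; edgeR adjusted p = 0.000930). NFKB2 stood at 48.0 ± 1.47 CPM in siEIF4G2, against 85.8 ± 4.05 CPM in siNC (log2 fold change -0.84, SE 0.05; edgeR adjusted p = 0.000407). RELA and NFKB1, the subunits of the canonical dimer, read 52.0 and 44.6 CPM in siEIF4G2 and 49.5 and 48.7 CPM in siNC (by edgeR, adjusted p = 0.566 and 0.181), and were looked up after the values were seen.

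The inhibitors and adaptors in the list included genes that were called and genes that were not, such as NFKBIB and TRAF6 (adjusted p by edgeR 0.810 and 0.121). NFKBIA, the inhibitor that is itself an NF-kB target, fell to 54.7 ± 1.20 CPM in siEIF4G2, against 70.2 ± 2.20 CPM in siNC (by edgeR, adjusted p = 0.00302). CYLD, a deubiquitinase that restrains the pathway, fell to 25.7 ± 1.34 CPM in siEIF4G2, against 44.5 ± 5.76 CPM in siNC (by edgeR, adjusted p = 0.00324). RIPK1, a kinase of the TNF receptor complex, averaged 54.1 CPM in siEIF4G2, against 75.7 CPM in siNC (log2 fold change -0.48, SE 0.05; by edgeR, adjusted p = 0.00161). TRAF2 and TRAF5, adaptors of TNF family receptors, fell by 0.20 and 0.24 on the log2 scale (adjusted p by edgeR 0.0304 and 0.0334). The call of TRAF2 was lost without any 1 library other than siEIF4G2 replicate 2 (0.0672 to 0.0917), and that of TRAF5 without any 1 library other than siEIF4G2 replicate 3 (0.0661 to 0.0991). The 1 gene that rose was TRAF3, an adaptor that keeps the noncanonical pathway off, at 40.9 ± 0.400 CPM in siEIF4G2 and 15.9 ± 9.09 CPM in siNC (by edgeR, adjusted p = 0.0367). Its call was lost when any 1 of the siEIF4G2 libraries was left out (by edgeR, adjusted p = 0.0801 to 0.0834), without siNC replicate 2 (0.105) and without siNC replicate 3 (0.0671).

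The genes that carry the gp130 signal were called at about the rate of all tested genes (33.4%). Of 16 listed JAK, STAT, SOCS and related genes 14 were tested, 3 fell, 1 rose and 10 did not pass, with a median log2 fold change of -0.03. PTPN11, the phosphatase SHP2, rose to 310 ± 14.9 CPM in siEIF4G2, against 186 ± 6.21 CPM in siNC (log2 fold change 0.73, SE 0.05; edgeR adjusted p = 0.000470), and its interval overlaps the abundant RPL6. JAK1, the kinase bound to gp130, fell to 180 ± 10.6 CPM in siEIF4G2, against 245 ± 1.53 CPM in siNC (by edgeR, adjusted p = 0.00213). STAT5B fell, with a log2 fold change of -0.31 (by edgeR, adjusted p = 0.00224). CEBPB, a transcription factor of the IL6 promoter, had a log2 fold change of -0.35 (by edgeR, adjusted p = 0.0219), and missed the threshold without siEIF4G2 replicate 1 or 3 (0.0667 and 0.0664) and without siNC replicate 1 or 2 (0.0705 and 0.0698). PIAS3, an inhibitor of STAT3, stood at 47.5 ± 3.06 CPM in siEIF4G2 and 41.6 ± 1.36 CPM in siNC (by edgeR, adjusted p = 0.0668).

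Few genes of interleukin-18 processing were detected. Of 12 listed genes 5 were tested, 1 fell, 0 rose and 4 did not pass. NINJ1, which ruptures the membrane late in cell death, fell to 58.6 ± 5.42 CPM in siEIF4G2, against 89.2 ± 1.11 CPM in siNC (log2 fold change -0.61, SE 0.07; edgeR adjusted p = 0.00223). CASP1, the protease that cleaves the IL18 precursor, stood at 5.28 ± 1.56 CPM in siEIF4G2 and 8.57 ± 0.778 CPM in siNC (by edgeR, adjusted p = 0.0659), and passed downward without siEIF4G2 replicate 2 (log2 fold change -0.48, edgeR adjusted p = 0.0498). CASP4, which acts in the same pathway, stood at 57.7 ± 7.12 CPM in siEIF4G2 and 69.6 ± 6.75 CPM in siNC (by edgeR, adjusted p = 0.120).

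Regulators of cytokine messenger RNA stability were also called at about the rate of all tested genes when both directions are counted together. All 21 listed genes were tested, 5 rose, 2 fell and 14 did not pass, with a median log2 fold change of 0.02. Among all tested genes 15.9% rose and 17.6% fell. ZFP36, or tristetraprolin, which binds AU-rich elements and recruits deadenylases, fell to 5.91 ± 0.988 CPM in siEIF4G2, against 11.7 ± 1.12 CPM in siNC (log2 fold change -0.98, SE 0.15; edgeR adjusted p = 0.00505). HNRNPD, or AUF1, another AU-rich element binding protein, rose to 274 ± 12.9 CPM in siEIF4G2, against 203 ± 17.6 CPM in siNC (log2 fold change 0.43, SE 0.07; edgeR adjusted p = 0.00724). KHSRP, a decay-promoting binding protein, MAPKAPK2, the kinase that inactivates ZFP36, and TIA1, a translational silencer, rose by 0.23, 0.27 and 0.27 on the log2 scale (adjusted p by edgeR 0.0112, 0.00511 and 0.0128). ELAVL1, or HuR, which stabilizes many of these messenger RNAs, stood at 131 ± 8.11 CPM in siEIF4G2 and 128 ± 6.83 CPM in siNC (by edgeR, adjusted p = 0.766), and was looked up after the values were seen.

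The calls of ZC3H12A and CNOT7, the remaining members of the stability list past the threshold, were not held by every subset of libraries. ZC3H12A, or Regnase-1, an endonuclease that cuts IL6 messenger RNA, had a log2 fold change of -0.40 (by edgeR, adjusted p = 0.0478). It missed the threshold without siEIF4G2 replicate 1, 2 or 3 (0.0965, 0.0615 and 0.113) and without siNC replicate 2 or 3 (0.129 and 0.132), and with the replicate number as a block (0.0925). CNOT7, a deadenylase, had a log2 fold change of 0.31 (by edgeR, adjusted p = 0.0312). It missed the threshold without siEIF4G2 replicate 2 or 3 (0.0665 and 0.0630) and without siNC replicate 1 or 2 (0.0960 and 0.0924), and with that block (0.0664).

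Proteins that cut, bind or modify chemokines after secretion included more falls than rises. Of 19 listed genes 12 were tested, 6 fell, 1 rose and 5 did not pass, with a median log2 fold change of -0.11. Over all tested genes 17.6% fell and 15.9% rose. MMP12, a metalloprotease that trims CXC chemokines, fell to 0.680 ± 0.208 CPM in siEIF4G2, against 2.36 ± 0.398 CPM in siNC (log2 fold change -1.79, SE 0.27; edgeR adjusted p = 0.00439). MMP12 reached 0.5 FPKM in all 3 siNC libraries and in 0 siEIF4G2 libraries, so it was tested only through the group where it is higher. With no filter on low values its adjusted p by edgeR was 0.00790. ADAM17, the sheddase of TNF and IL6R, fell to 37.2 ± 2.15 CPM in siEIF4G2, against 54.8 ± 3.09 CPM in siNC (by edgeR, adjusted p = 0.00253), and its interval overlaps IAH1. HSPG2, the proteoglycan perlecan, fell with a log2 fold change of -0.43 (by edgeR, adjusted p = 0.00775). SDC4, a syndecan whose heparan sulfate chains bind chemokines, rose to 50.4 ± 2.91 CPM in siEIF4G2, against 39.6 ± 0.404 CPM in siNC (by edgeR, adjusted p = 0.00681). SDC3 had a log2 fold change of -0.19 (by edgeR, adjusted p = 0.0228), and missed the threshold without siEIF4G2 replicate 1 or 3 (0.0744 and 0.0558) or without any 1 of the siNC libraries (0.0511 to 0.0820), and with the replicate block (0.0558). The count of 7 called genes was 4 without siEIF4G2 replicate 1, siNC replicate 1 or siNC replicate 2.

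The genes whose level across the 6 libraries was most like that of CCL5, by Pearson correlation of log2(CPM + 0.5) among 11735 genes, were CLPTM1, ABHD3, CHRNA10, VARS2 and XPC, with r between 0.9974 and 0.998. Their log2 fold changes lay between -2.51 for CHRNA10 and -0.29 for VARS2. For IL32 they included BBOF1, NGRN, UTP18 and CAPN5, with r between 0.9982 and 0.9991 and log2 fold changes between -1.32 for CAPN5 and -0.23 for UTP18. These correlations are a description over 6 libraries in 2 groups, so a difference between the groups by itself gives a high r.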

How the data were processed

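Poly(A) RNA of 6 libraries was measured by paired-end sequencing. Per the submitters' processing notes, HISAT2 2.0 and StringTie 1.3.0 were used. Not given in the sources used here are the role of each tool, the strand setting, the annotation and the genome build. A table was deposited by the authors, with an FPKM value and a count per gene and library, and it lists 0.0001 FPKM where the count is 0. The deposited counts behave as estimated counts already rounded to whole numbers, since of 52 low values rescaled to reads 30.8% lay within 0.1 of a whole read. Gene intervals were set against GENCODE release 29 on GRCh38, and 99.8% of the 58394 identifiers in both overlapped, so coordinates are given as GRCh38.

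Groups came from the sample titles. Of rows sharing a symbol the one with the highest mean FPKM was kept, a gene was tested if it reached 0.5 FPKM in 3 or more libraries, and siEIF4G2 was set against siNC with edgeR 4.0.16 (quasi-likelihood, TMM, group only, two-sided, Benjamini-Hochberg) in R 4.3.3. Each standard error was derived from the fold change and its F statistic. The test was checked on simulated counts of 13748 genes. It recovered 2% of 1.3-fold, 28% of 1.5-fold, 72% of 2-fold and 98% of 4-fold changes, and 3 of its 103 calls were false. The simulated spread followed only its trend with expression level, with none particular to a gene, and far fewer genes were changed than are called in the data. In the data 4597 genes were called and some genes spread more, so these shares, the false calls included, may differ there. Alternatives used limma 3.58.1, DESeq2 1.42.0, other filters, summed rows, a replicate block and leaving out each library. Library depth was 63351653 to 72863628 counts, and no 2 libraries of a group agreed within sampling noise (chi-square per gene at least 69.2). Limits from counts cover counting error only.

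For 3′ untranslated regions the protein-coding transcript with the longest coding sequence was read, a choice made after the values were seen. The 10 genes and all lists were chosen with earlier results of these data known. Named were all 10 genes, EIF4G2, up to 5 tested genes with the smallest p of each list, and genes overlapping any of these. The 5 genes most like CCL5 and IL32 and genes said to be looked up later were also named. TRAF2, TRAF3, TRAF5, TRAF6, NFKBIB, CNOT7 and ZC3H12A were named after their values were seen. Some genes that this rule picks are not reported here.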

Additional observations from a re-analysis of the deposited data

How the results depend on the processing

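Over 14 alternatives, the log2 fold change of each of the 8 tested chemokines and cytokines stayed below 0 (112 of 112 values). With limma on log2(FPKM + 1), whose pseudocount pulls low genes toward 0, it was -0.88 for IL32, -0.59 for CSF1, -0.45 for IL6, -0.78 for LIF and -0.84 for CXCL10. Leaving out 1 library at a time gave -2.05 to -1.67 for CCL5, -1.64 to -1.48 for IL32, -1.74 to -1.10 for CXCL10, -1.13 to -0.60 for IL18 and -0.49 to -0.11 for CCL2. IL18 also lay past the threshold with the DESeq2 Wald test. So did CASP1, CXCL16 and LIFR, all downward (adjusted p by that test 0.0193, 0.0345 and 0.00524). LIFR passed by limma on log2(FPKM + 1) (adjusted p = 0.0463) but not by limma on log2(FPKM + 0.1) (0.0520). The number of genes called, 4597, was 3352 to 4134 with 1 library left out.

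Small lists moved in count. Other chemokines had 2 calls in place of 1 with DESeq2 and with the replicate block, and 1 to 2 with a library left out. Genes of interleukin-18 processing had 2 in place of 1 with DESeq2, and 1 to 2 with a library left out. Chemokine modifiers had 4 in place of 7 with no filter on low values, and 4 to 6 with a library left out. CARD8, not called, turned to 0.025 and 0.07 without siEIF4G2 replicate 2 and siNC replicate 2. With 1 library left out it lay between -0.15 and 0.07. NFKBIB, not called, turned to -0.0083 and -0.040 without siEIF4G2 replicate 1 and siEIF4G2 replicate 2, and lay between -0.040 and 0.22 with 1 library left out. The cause was not tested.

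Replicate numbers are shared between the groups. Over all tested genes, same-numbered libraries deviated together little (correlations -0.021, 0.019 and 0.034 for replicates 1, 2 and 3). Single genes may still deviate together, as CCL2 was lowest in replicate 2 of both groups (3.18 CPM in siEIF4G2, 4.72 CPM in siNC). Whether same-numbered libraries share more than a number was not tested further. With the replicate block 3736 genes were called. Depth limits CXCL8 and CXCL1, for which no fold change is given.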

Other observations

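Of 30 other cytokine genes that had counts but stayed below the filter on low values, 5 had all siEIF4G2 libraries below all siNC libraries (16.7%) and 1 had them above (3.33%), against 7.26% and 3.95% of all 13316 genes below the filter with counts. These 6 were looked up after the values were seen. They were tested only with no filter on low values, among 27064 genes of which 2138 were called lower and 1771 higher. In that setting 44 genes of the list were tested, 6 were called lower and 0 higher, against 4 and 0 of 14 with the filter. Which genes were called there is not reported here. IL24, a cytokine of the interleukin-10 family, had 6, 10 and 13 counts in siEIF4G2 replicates 1, 2 and 3, against 132, 71 and 101 counts in siNC replicates 1, 2 and 3. IL1B, a central inflammatory cytokine, had 9, 4 and 0 counts in siEIF4G2, against 42, 28 and 37 counts in siNC. IL20, which neighbours IL24 in the same family, had 0 counts in each siEIF4G2 library, against 8, 15 and 27 counts in siNC. TSLP, an epithelial cytokine, went the other way, with 36, 30 and 22 counts in siEIF4G2, against 0, 12 and 0 counts in siNC. LTA, or lymphotoxin alpha, had 4, 4 and 0 counts in siEIF4G2, against 12, 22 and 21 counts in siNC. THPO, the platelet growth factor thrombopoietin, had 7, 19 and 12 counts in siEIF4G2, against 34, 24 and 33 counts in siNC.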
